A study of Mus musculus with 24 samples.

Results

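The 10 genes described here encode the machinery that cuts proteins into peptides and shows those peptides on MHC class I molecules: the heavy chains H2-K1, H2-D1 and H2-T22, the light chain B2m, the peptide transporter subunits Tap1 and Tap2, the loading factor Tapbp, the immunoproteasome subunits Psmb8 and Psmb9, and the proteasome activator subunit Psme2. They were given as a list of names for their role in the pathway, with earlier results of these data known, and 10 of 10 were present among the 13290 genes of the count tables. RNA was sequenced from BV2 cells, a mouse microglial cell line immortalised by a retrovirus that carries oncogenes, and from the extracellular vesicles (EVs) that BV2 cells release. The cells were untreated controls or were kept for 72 h with LPS (lipopolysaccharide, a bacterial cell wall component, 100 ng/mL), the cytokine IL-10 (50 ng/mL) or the cytokine TGF-β (50 ng/mL). All groups were of the same line, with no genetic change named, and each of the 8 groups of treatment and compartment held 3 libraries, 24 in all. The labels do not say whether the 3 libraries of a group came from separate cultures, so a p-value here weighs a difference against library-to-library variation that could be technical in origin. In such bulk RNA, fewer cells that express a gene and less RNA of it per cell cannot be told apart. Libraries are numbered here as the columns of the tables number them within a group, and nothing in the labels says whether equal numbers in different groups share a culture.

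In the class I pathway, the proteasome cuts cytosolic proteins, the TAP transporter moves the peptides into the endoplasmic reticulum, and tapasin (Tapbp) helps load them on a heavy chain bound to β2-microglobulin before the complex goes to the cell surface, where CD8 T cells read it. In the immunoproteasome, Psmb9, Psmb10 and Psmb8 take the places of the constitutive catalytic subunits Psmb6, Psmb7 and Psmb5. Interferons and the coactivator NLRC5 are known to raise the transcription of these genes, and microglia are known to raise class I expression when activated.

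Depth was 26136825 to 42125153 counts in the cell libraries and 3019338 to 17978753 in the EV libraries. Genes with no count made up 4.91 to 7.25% of the list in the cell libraries, 0.489 to 4.42% in the 3 LPS EV libraries and 19.6 to 50% in the other EV libraries. The 10 genes took 0.609 to 1.3% of all counts in cells and 0.106 to 0.9% in EVs. Of 16 microglia and macrophage markers, 12 were among the genes of the tables (Fcrls, P2ry12, Sall1 and Siglech were not), and Cd68, Csf1r and Tyrobp stood at 2550, 836 and 1318 CPM (counts scaled to a common library total) in control cells, whereas Tmem119 stood at 11.4 CPM and Cx3cr1 at 0.081 CPM. Of the markers of other cell types in the cells, the fibroblast marker Col3a1 had no count in any library, the 3 neuronal markers summed to at most 0.285 CPM, the endothelial markers to at most 1.33 CPM and the oligodendrocyte marker Mbp to at most 1.93 CPM. The 4 astrocyte markers summed to 6.28 to 13.4 CPM and the 2 neutrophil markers to 0.91 to 11 CPM in the cells. In EVs the lists went in different directions. In the LPS EV libraries the 3 neuronal markers summed to 20.1 to 146 CPM (at most 14.5 CPM in the other EVs), the 4 astrocyte markers to 64.3 to 320 CPM (at most 42.2 CPM), and the 2 endothelial markers to 13.7 to 72.5 CPM, against no count in any other EV library. Col3a1 (10.3 to 51.3 CPM) likewise had counts in the LPS EVs alone among the EVs. Only 3 of 7 neuronal, 4 of 6 astrocyte, 2 of 5 endothelial, 1 of 5 fibroblast and 1 of 5 lymphocyte markers were among the genes of the tables. No listed gene had a total under 240 counts. Genes near 0 in all other groups, such as Col3a1 and Ms4a1, were thus listed only through the LPS EVs, which fixed their excess there. The part of this in the share of genes at 0 was not tested. Mbp (1 of 5 oligodendrocyte markers listed) was not higher there, at 0.686 to 4.31 CPM in LPS EVs, against 0 to 60.5 CPM in control, 0.432 to 15.8 CPM in IL-10 and 6.83 to 50.6 CPM in TGF-β EVs. The lymphocyte marker Ms4a1 stood at 14.5 to 45.4 CPM in LPS EVs and at most 0.177 CPM in the others, and the 2 neutrophil markers at 7.01 to 13.6 CPM and at most 9.39 CPM. The 12 microglia markers summed to 2920 to 4250 CPM in LPS EVs, and to 1900 to 6630 CPM in the other EVs.

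The starts of the genes are shown first, because the genes share sequence there. Of the 10 genes, 9 matched an entry of the RefSeq table of promoters (mouse build GRCm38.p6), which holds 250 bases before and 50 bases after each start, and Tap2 did not. On chromosome 17 lie Psmb9, Tap1, Psmb8 and Tap2, as direct neighbours in that order, and also Tapbp, H2-K1, H2-D1 and H2-T22, whereas B2m is on chromosome 2 and Psme2 on chromosome 14. The windows below are those of H2-K1 (chr17:34000298-34000597, minus strand, the upstream window of 2), H2-D1 (chr17:35262844-35263143, plus strand), H2-T22 (chr17:36042693-36042992, minus strand), B2m (chr2:122147437-122147736, plus strand), Tap1 (chr17:34187306-34187605, plus strand) and Psmb8 (chr17:34197945-34198244, plus strand), in capitals where a searched motif matched on either strand.
H2-K1: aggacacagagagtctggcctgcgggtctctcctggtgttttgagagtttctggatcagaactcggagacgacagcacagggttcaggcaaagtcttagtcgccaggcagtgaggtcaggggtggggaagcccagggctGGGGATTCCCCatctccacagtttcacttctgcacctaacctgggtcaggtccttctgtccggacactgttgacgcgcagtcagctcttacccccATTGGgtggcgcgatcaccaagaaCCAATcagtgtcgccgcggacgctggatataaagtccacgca
H2-D1: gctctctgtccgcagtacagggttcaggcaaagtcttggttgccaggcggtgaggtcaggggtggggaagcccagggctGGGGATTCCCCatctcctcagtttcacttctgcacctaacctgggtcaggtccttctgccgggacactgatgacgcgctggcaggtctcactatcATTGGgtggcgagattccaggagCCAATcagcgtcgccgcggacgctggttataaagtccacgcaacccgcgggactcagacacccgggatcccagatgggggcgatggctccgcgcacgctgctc
H2-T22: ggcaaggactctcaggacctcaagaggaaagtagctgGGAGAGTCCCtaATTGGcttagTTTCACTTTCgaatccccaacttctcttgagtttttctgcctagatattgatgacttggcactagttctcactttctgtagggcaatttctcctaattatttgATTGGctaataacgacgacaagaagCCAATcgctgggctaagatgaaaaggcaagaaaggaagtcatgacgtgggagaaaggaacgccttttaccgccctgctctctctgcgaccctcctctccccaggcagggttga
B2m: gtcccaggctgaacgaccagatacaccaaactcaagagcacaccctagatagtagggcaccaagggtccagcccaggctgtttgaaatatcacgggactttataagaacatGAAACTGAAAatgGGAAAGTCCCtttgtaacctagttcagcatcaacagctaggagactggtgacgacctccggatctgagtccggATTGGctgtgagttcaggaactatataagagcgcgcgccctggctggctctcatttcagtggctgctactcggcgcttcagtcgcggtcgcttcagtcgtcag
Tap1: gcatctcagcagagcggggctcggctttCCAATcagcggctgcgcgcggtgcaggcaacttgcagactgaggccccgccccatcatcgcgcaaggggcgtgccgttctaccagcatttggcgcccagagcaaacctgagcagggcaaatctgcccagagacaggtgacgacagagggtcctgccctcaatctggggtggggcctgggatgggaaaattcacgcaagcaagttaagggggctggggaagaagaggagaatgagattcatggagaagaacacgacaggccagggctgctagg
Psmb8: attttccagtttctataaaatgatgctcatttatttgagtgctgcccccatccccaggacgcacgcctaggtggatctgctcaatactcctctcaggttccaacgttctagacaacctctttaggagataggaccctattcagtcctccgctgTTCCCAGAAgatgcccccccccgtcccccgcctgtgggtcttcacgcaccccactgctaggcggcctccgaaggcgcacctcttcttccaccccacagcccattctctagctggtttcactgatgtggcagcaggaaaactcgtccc
Searched were the interferon-response letters GAAANNGAAA (ISRE), the letters TTCNNNGAA (GAS), the NF-kB consensus and the letters CCAAT, as in the Y box of class I promoters, each on both strands and with overlapping matches kept. The NF-kB consensus matched in 4 of the 9 genes, H2-K1, H2-D1, H2-T22 and B2m, which are the 3 heavy chains and their light chain, and in 8.46% of all 32851 windows of this length. GAAANNGAAA was present in B2m and H2-T22 (3.44% of all windows), TTCNNNGAA in Psmb8 (8.3% of all windows) and CCAAT in 7 of 9 genes (37.4% of all windows). The windows of Tap1 and Psmb9 overlap by 275 of 300 bases, since the genes are transcribed in opposite directions from starts 226 bases apart, and the CCAAT at -222 of Tap1 is the match at -8 of Psmb9 on the other strand. A match is a description of these letters and does not show that a factor binds, and a window without a match can hold a variant of the letters.

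In control cells the genes spanned a wide range of levels. Per length, in TPM (counts per exon length, scaled to the same sum in each library) with exon lengths from GENCODE M21, B2m stood at 7502, H2-D1 at 5239 and H2-K1 at 1128, followed by Tapbp at 302, Psme2 at 194, Psmb8 at 117 and Tap1 at 54.7. None of these neighbours in the order overlapped between the 3 libraries. Psmb9, H2-T22 and Tap2, at 41.6, 41.3 and 40.4 TPM, overlapped. The order of the first 3 was the same with each treatment in cells. With LPS, Psme2 (573 TPM) stood above Tapbp (446 TPM) and H2-T22 (159 TPM) above Tap1 (108 TPM), and with TGF-β H2-T22 came last at 27.6 TPM. The exon length of a gene joins the exons of all its annotated transcripts, which can exceed the length of the RNA present. The order between genes depends on that choice, and its part in the order was not tested.

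LPS and IL-10 each raised 9 of the 10 genes in cells, and TGF-β lowered 6 and raised none. The exceptions were H2-D1 with LPS and Tap2 with IL-10. LPS moved H2-T22 and Psme2 most, 3.59-fold and 2.76-fold, and IL-10 moved H2-T22 and H2-K1 most, 2.01-fold and 1.84-fold. TGF-β lowered H2-D1 and H2-K1 most, 1.52-fold and 1.49-fold. The count of 9 higher with LPS stands beside 28.6% of all 11951 genes tested called higher by the same rule (edgeR's quasi-likelihood test, adjusted p under 0.05), that of 9 higher with IL-10 beside 12.3% of 11790, and that of 6 lower with TGF-β beside 15.4% of 11798. The median log2 fold change of the 10 genes was 0.64 with LPS, 0.52 with IL-10 and -0.27 with TGF-β, where the medians of all genes tested were 0.01, 0 and 0.01. The treated libraries did not overlap with the controls for 9 genes with LPS (62.4% of all genes), 10 with IL-10 (37.9%) and 8 with TGF-β (44.9%). The 3 comparisons share their control libraries.

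**Figure D1:**
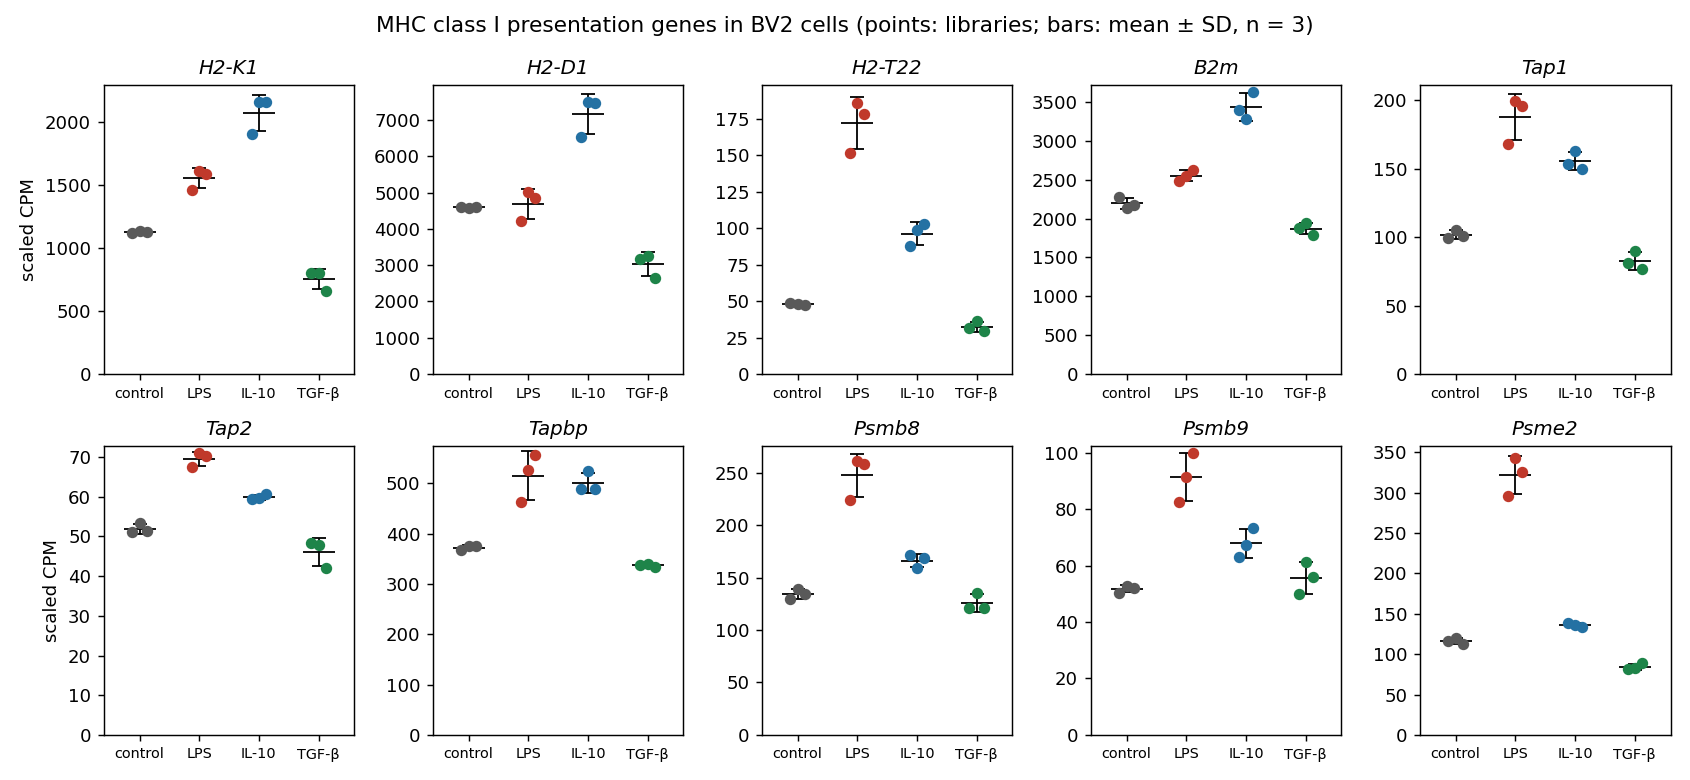
Level of each gene in the 12 cell libraries, in CPM scaled by TMM over those libraries (y axes start at 0). Points are libraries, ordered by their number within a group, and bars give the mean and SD of 3; H2-D1 shows overlapping control and LPS libraries, and the IL-10 libraries are the highest for H2-K1, H2-D1 and B2m while the LPS libraries are the highest for H2-T22, Tap1, Tap2, Psmb8, Psmb9 and Psme2.

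The levels by library below are CPM scaled over the 12 cell libraries by TMM, a method that sets the bulk of genes equal between libraries. Among the heavy chains, H2-K1, a classical class I molecule, had 1117, 1138 and 1126 scaled CPM in the control cells, 1463, 1611 and 1582 with LPS, 1905, 2153 and 2154 with IL-10, and 805, 799 and 661 with TGF-β. No library of any treatment fell within the control range, and the 4 groups kept the order IL-10, LPS, control, TGF-β without overlap. The log2 fold change of H2-K1 over control was 0.46 with LPS (SE 0.06, edgeR adjusted p = 2.43e-06), 0.88 with IL-10 (SE 0.06, 1.22e-09) and -0.58 with TGF-β (SE 0.08, 8.67e-05).

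H2-D1, the other classical heavy chain of the set, had 4594, 4579 and 4606 scaled CPM in control cells, a coefficient of variation of 0.293%, and 4209, 5002 and 4842 with LPS. The control libraries lay inside the LPS range, and the log2 fold change was 0.03 (SE 0.07, edgeR adjusted p = 0.74), with a sign that turned when LPS library 2 or 3 was left out (-0.03 at the lowest). IL-10 gave 6516, 7493 and 7456 scaled CPM, a rise of 0.64 on the log2 scale (SE 0.06, edgeR adjusted p = 8.49e-08). TGF-β gave 3166, 3265 and 2653, and H2-D1 fell by 0.60 on the log2 scale (SE 0.08, edgeR adjusted p = 7.68e-05).

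H2-T22 is a nonclassical heavy chain known as a ligand of γδ T cells. Its level was 48.4, 48.1 and 47.1 scaled CPM in control cells, 152, 186 and 179 with LPS, 87.8, 98.6 and 103 with IL-10, and 31.6, 36.3 and 29.4 with TGF-β. The 4 groups did not overlap. The log2 fold changes were 1.84 with LPS (SE 0.08, edgeR adjusted p = 3.42e-13), 1.01 with IL-10 (SE 0.08, 1.96e-08) and -0.56 with TGF-β (SE 0.10, 0.000847). Of the 50-base windows of its longest transcript, 35.8% occur in another gene of GENCODE M21, mainly H2-T10, but 0% of the 150-base windows do. The level of H2-T22 is thus uncertain to the extent that short alignments were split between the copies. H2-T10 itself was low in cells, at 0.835 CPM of the library total in control and 7.55 with LPS.

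B2m, the light chain that every class I heavy chain needs, had 2272, 2136 and 2171 scaled CPM in control cells and 2484, 2543 and 2623 with LPS. The LPS libraries were all above the controls, by 0.22 on the log2 scale (SE 0.06, edgeR adjusted p = 0.00431). IL-10 gave 3399, 3280 and 3625, a rise of 0.65 (SE 0.05, edgeR adjusted p = 3.86e-08). TGF-β gave 1882, 1940 and 1791, and B2m fell by 0.23 (SE 0.07, edgeR adjusted p = 0.0161), a call that was lost without control library 1 (adjusted p = 0.0997), control library 3 (0.0595) or TGF-β library 1 (0.064).

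**Figure D2:**
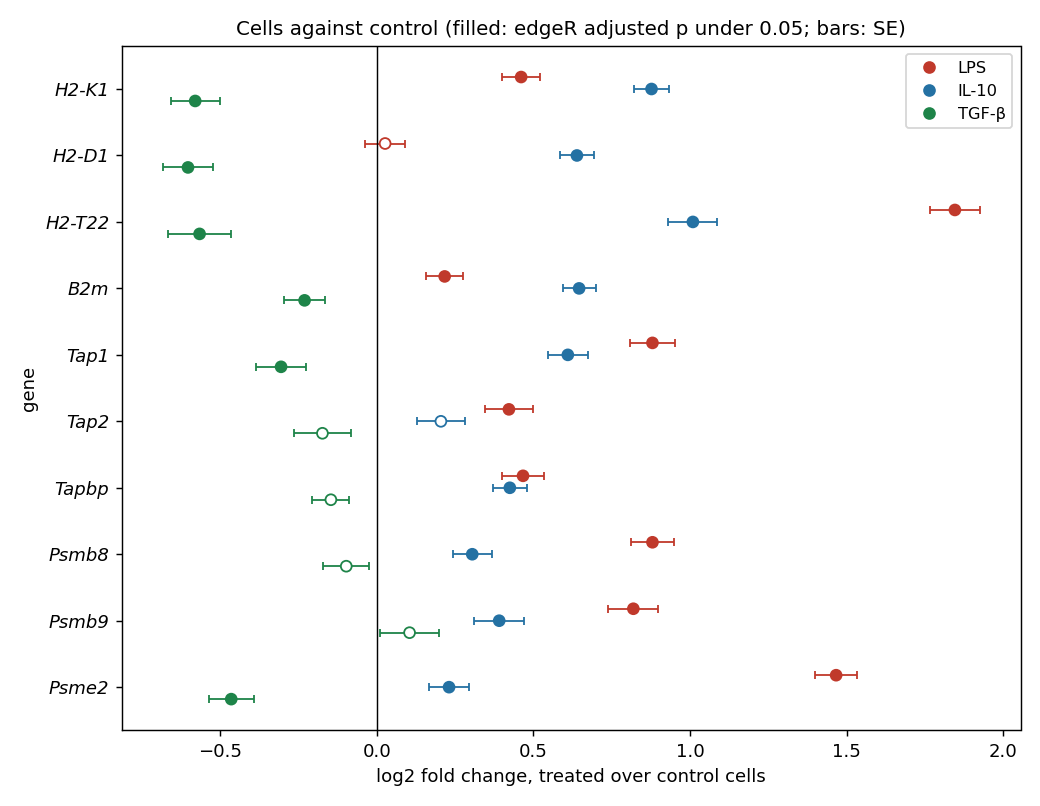
Log2 fold change of the 10 genes in treated over control cells (x axis) with its SE, for LPS (red), IL-10 (blue) and TGF-β (green). Filled points passed edgeR's test; H2-T22 and Psme2 lie farthest to the right with LPS (1.84 and 1.47), and the TGF-β points lie at or below 0 except that of Psmb9 (0.10, not past the test).

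The transporter subunits form a heterodimer, and their changes were of unequal size. Tap1 had 99.5, 105 and 101 scaled CPM in control cells, 168, 199 and 196 with LPS, 154, 163 and 150 with IL-10, and 81.2, 89.8 and 76.5 with TGF-β. No group overlapped with another. The log2 fold changes of Tap1 were 0.88 with LPS (SE 0.07, edgeR adjusted p = 4.78e-09), 0.61 with IL-10 (SE 0.06, 1.19e-06) and -0.30 with TGF-β (SE 0.08, 0.0104), the last of which was lost without control library 2 (adjusted p = 0.0504). Tap2 had 51, 53.4 and 51.3 scaled CPM in control cells, 67.6, 71 and 70.3 with LPS, 59.4, 59.7 and 60.6 with IL-10, and 48.4, 47.9 and 42 with TGF-β. Its groups did not overlap either, but the changes were smaller: 0.42 with LPS (SE 0.08, edgeR adjusted p = 0.000105), 0.21 with IL-10 (SE 0.08, 0.0607) and -0.17 with TGF-β (SE 0.09, 0.175). Tap2 passed with IL-10 in DESeq2 (adjusted p = 0.0416) and in limma-voom with quality weights (0.0498).

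Tapbp, which bridges the transporter and the empty heavy chain, had 367, 375 and 376 scaled CPM in control cells, 463, 526 and 557 with LPS, 488, 524 and 489 with IL-10, and 337, 339 and 335 with TGF-β. It rose by 0.47 on the log2 scale with LPS (SE 0.07, edgeR adjusted p = 8.45e-06) and by 0.42 with IL-10 (SE 0.05, 1.01e-05). With TGF-β all libraries lay below the controls, and the log2 fold change of -0.15 (SE 0.06) did not pass edgeR's test (adjusted p = 0.0804), though it did in limma-voom (0.0457).

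The immunoproteasome subunits Psmb8 and Psmb9, proteases of the catalytic core, rose most with LPS. Psmb8 had 129, 140 and 135 scaled CPM in control cells, 224, 261 and 258 with LPS, 171, 159 and 169 with IL-10, and 121, 136 and 121 with TGF-β. The LPS and IL-10 libraries lay above the controls, and the TGF-β libraries overlapped with them. The log2 fold changes of Psmb8 were 0.88 with LPS (SE 0.07, edgeR adjusted p = 3.03e-09), 0.31 with IL-10 (SE 0.06, 0.0015) and -0.10 with TGF-β (SE 0.07, 0.348). Psmb9 had 50.4, 52.8 and 52.2 scaled CPM in control cells, 82.8, 91.6 and 100 with LPS, 63.2, 67.4 and 73.3 with IL-10, and 50, 61.4 and 55.9 with TGF-β. It showed the same pattern, at 0.82 with LPS (SE 0.08, edgeR adjusted p = 5.78e-08), 0.39 with IL-10 (SE 0.08, 0.00139) and 0.10 with TGF-β (SE 0.09, 0.435).

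Psme2 encodes the β subunit of PA28, the cap that opens the proteasome. It had 116, 120 and 113 scaled CPM in control cells, 296, 343 and 325 with LPS, 139, 136 and 134 with IL-10, and 81, 83.3 and 88.7 with TGF-β. The groups did not overlap. The log2 fold changes were 1.47 with LPS (SE 0.07, edgeR adjusted p = 1.24e-12), 0.23 with IL-10 (SE 0.06, 0.0118) and -0.46 with TGF-β (SE 0.07, 0.000271). Psme2 shares 32.5% of the 150-base windows of its longest transcript with the copy Psme2b, so its counts could have been split. Psme2b stood at 11.7 CPM of the library total in control cells and 26.2 CPM with LPS.

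With IL-10 the scaling bears on the smaller changes: scaling by library totals alone shifted the median of all genes by -0.16 on the log2 scale, and then Psmb8 (0.15, edgeR adjusted p = 0.089) and Psme2 (0.07, 0.411) no longer passed, while the other 7 calls held. Without control library 3, Psme2 with IL-10 had an adjusted p of 0.0667. A direct contrast of the treatments, in a fit of the 12 cell libraries, placed 6 genes higher with LPS than with IL-10 (27% of all 12148 genes were called higher) and 3 lower (26.3%). The 3 lower genes were H2-K1 (-0.42, SE 0.08, edgeR adjusted p = 0.000173), H2-D1 (-0.61, SE 0.09, 6.42e-06) and B2m (-0.43, SE 0.06, 1.39e-05), that is, the classical heavy chains and the light chain. The 6 higher genes ranged from Tap2 (0.22, SE 0.08, 0.0262) over Tap1 (0.27), Psmb9 (0.43), Psmb8 (0.57) and H2-T22 (0.84) to Psme2 (1.24, SE 0.07, 1.9e-11). The Tap2 call was lost without IL-10 library 1 or 2 or LPS library 2 or 3 (adjusted p = 0.061 to 0.0778). Tapbp differed by 0.04 (SE 0.07, edgeR adjusted p = 0.63). All 10 genes were lower with TGF-β than with LPS, from B2m (0.45 higher with LPS) to H2-T22 (2.41), beside 29.3% of all genes called higher with LPS. All 10 were also lower with TGF-β than with IL-10 (20% of all genes), and of these Psmb9 (-0.29, SE 0.09, edgeR adjusted p = 0.0194) was lost in a fit of the 6 libraries concerned (0.0544) and without IL-10 library 2 or 3 or TGF-β library 1 (0.0507 to 0.124).

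Ratios of counts within a library do not depend on the scaling between libraries. Psmb9 over the constitutive subunit it replaces, Psmb6, was 0.0357, 0.0381 and 0.0381 in the control cells, 0.0753, 0.0729 and 0.0791 with LPS, 0.0464, 0.0447 and 0.0454 with IL-10, and 0.0604, 0.0655 and 0.0759 with TGF-β. Every treated library lay above the controls. The mean log2 ratio was higher by 1.02 with LPS, 0.84 with TGF-β and 0.29 with IL-10 (exact two-sided permutation test, p = 0.1 for each, the smallest value that 3 against 3 allows, adjusted over 12 ratios to 0.171). The counts behind the higher ratio differed. With LPS, Psmb9 rose and Psmb6 fell by 0.20 on the log2 scale (edgeR adjusted p = 0.0109), whereas with TGF-β Psmb6 fell by 0.74 (1.48e-05) and Psmb9 did not pass the test. Psmb6 had 1390 ± 22.3 scaled CPM (SD, n = 3) in control cells and 834 ± 101 with TGF-β.

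The other ratios differed less from control. The log2 ratio of Psmb8 to Psmb5 was -0.46 in controls, and higher by 0.27 with LPS and 0.30 with TGF-β (exact permutation test, p = 0.1, adjusted 0.171), and by 0.18 with IL-10 (p = 0.2). Psmb5 shares 57.1% of the 50-base windows of its longest transcript, and 7.1% of the 150-base windows, with copies such as Gm3375. Psmb10, the third catalytic subunit of the immunoproteasome, differed in its log2 ratio to Psmb7 by 0.50 with LPS (exact permutation test, p = 0.1), -0.01 with IL-10 and 0.02 with TGF-β. The sum of H2-K1 and H2-D1 over B2m was 2.51, 2.68 and 2.64 in controls and 2.11, 2.1 and 1.85 with TGF-β, without overlap (log2 difference -0.37, exact permutation test, p = 0.1, adjusted 0.171). It was 2.28, 2.6 and 2.45 with LPS and 2.48, 2.94 and 2.65 with IL-10, both of which overlapped with the controls.

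**Figure D3:**
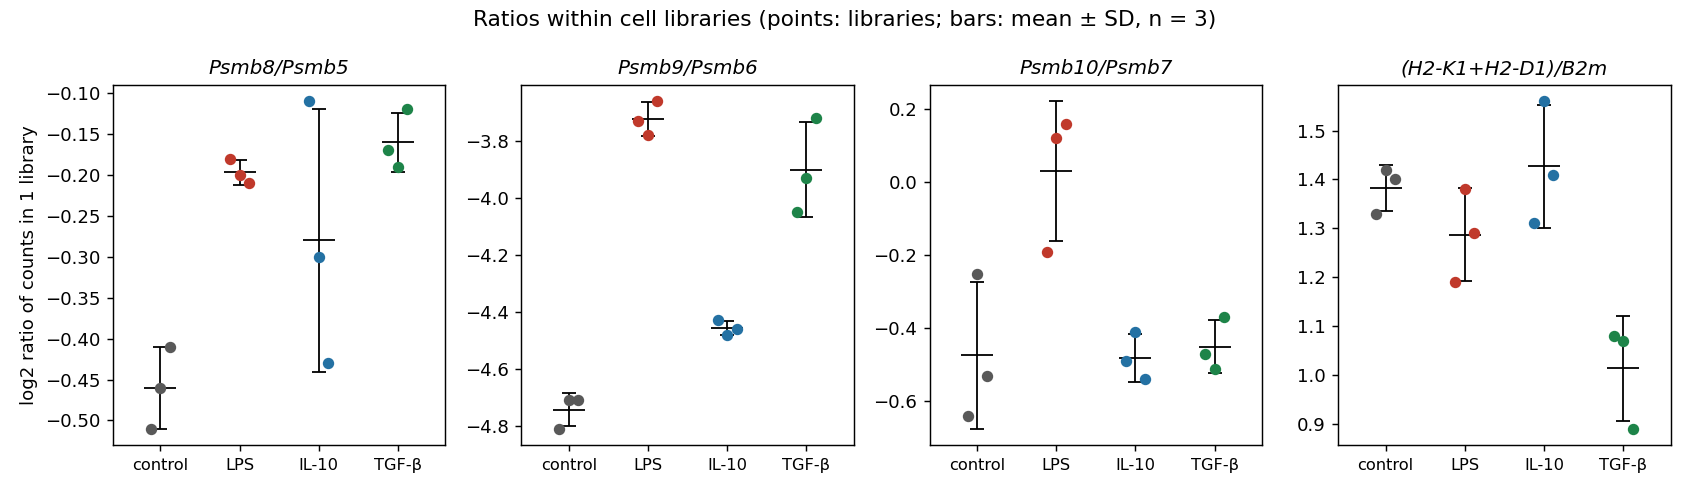
Log2 ratios of counts within each of the 12 cell libraries (y axis), with points for libraries and bars for the mean and SD of 3. All treated libraries lie above the controls for Psmb9 over Psmb6, and the 3 TGF-β libraries lie lowest for the classical heavy chains over B2m.

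The rest of the pathway was followed in 8 lists, whose counts stand beside 28.6% of all genes called higher and 27.5% lower with LPS, 12.3% and 10.9% with IL-10, and 14.5% and 15.4% with TGF-β. Of 16 other class I heavy chains, 9 were among the genes of the tables, and 5 rose and 1 fell with LPS, 4 rose with IL-10, and 1 rose and 3 fell with TGF-β. H2-M2, a nonclassical heavy chain, had 0.526 ± 0.0833 scaled CPM in control cells and 184 ± 7.15 with LPS (SD, n = 3), a log2 fold change of 8.45 (SE 0.12, edgeR adjusted p = 3.6e-20). H2-T23, which encodes Qa-1, the ligand of the receptor NKG2A, went from 447 ± 12.9 scaled CPM to 321 ± 27.8 with LPS, 609 ± 41.7 with IL-10 and 176 ± 14.4 with TGF-β. All 3 changes of H2-T23 passed (edgeR adjusted p = 6.24e-06, 1.52e-05 and 1.92e-08), and with LPS it fell where H2-K1 and H2-T22 rose. H2-Q7 rose by 1.36 with LPS (SE 0.10, edgeR adjusted p = 7.05e-10) and by 1.26 with IL-10 (SE 0.10, 2.42e-08).

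Of 11 other loading and translocation factors, 8 rose with LPS, 1 with IL-10 and 5 with TGF-β, and none fell. The chaperones that fold heavy chains rose with TGF-β, with which H2-K1, H2-D1 and H2-T22 fell: Pdia3 by 0.82 (SE 0.08, edgeR adjusted p = 2.95e-06), Calr by 0.52 (SE 0.06, 1.94e-05) and Canx by 0.53 (SE 0.08, 0.000155). With LPS the lowest p-values were those of Sec61b (0.99), Tapbpl, a relative of tapasin (1.18), Sec61g (0.82) and Pdia3 (0.35). With IL-10, Sec61g rose (0.48, SE 0.09, edgeR adjusted p = 0.000691). The other immunoproteasome genes Psmb10 (0.94), the assembly factor Pomp (0.69) and Psme1 (0.23), the α subunit of PA28, rose with LPS, 3 of 3. With IL-10, 0 of these 3 passed, and with TGF-β only Psme1 changed, by -0.36 (SE 0.08, edgeR adjusted p = 0.0035).

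Of the 4 constitutive partners, Psmb5 (0.61), Psmb7 (0.44) and the nuclear activator Psme3 (0.17) rose with LPS and Psmb6 fell. With IL-10 only Psme3 changed, by -0.24, while Psmb5 (0.13), Psmb6 (0.11) and Psmb7 (0.18) did not pass. With TGF-β Psmb6 (-0.74), Psmb5 (-0.40) and Psme3 (-0.27) fell. Of the 7 cytosolic peptidases 2 rose and 1 fell with LPS, led by Thop1 (0.80, SE 0.08, edgeR adjusted p = 8.93e-08). With IL-10, 2 of the 7 rose, Lap3 and Blmh (0.34 each), and with TGF-β 1 rose and 2 fell. Among class I-like molecules 5 of 6 were in the tables. With LPS, 2 rose, Procr (1.34) and Cd1d1 (3.29), and 3 fell, among them Fcgrt (-1.68) and Hfe (-0.90). TGF-β raised Mr1, which presents vitamin B metabolites, by 1.16 (SE 0.07, edgeR adjusted p = 9.65e-08), and of the 5 raised 3 and lowered 1. IL-10 raised 3 and lowered 1.

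Among 15 regulators, 6 rose and 5 fell with LPS, 7 rose and 3 fell with IL-10, and 3 rose and 3 fell with TGF-β, the last near the share over all genes in both directions. Nlrc5, the class I coactivator, had 53.3 ± 4.27 scaled CPM in control cells, 74.7 ± 8.87 with LPS, 92.3 ± 11.4 with IL-10 and 51.8 ± 4.59 with TGF-β (SD, n = 3). It rose by 0.49 with LPS (SE 0.09, edgeR adjusted p = 0.000135) and by 0.79 with IL-10 (SE 0.09, 3.61e-06), and its change with TGF-β was -0.04 (SE 0.10, 0.787). Irf1, an interferon-induced activator of the shared Tap1 and Psmb9 start region, rose in all treatments, by 1.31 with LPS (edgeR adjusted p = 1.58e-09), 0.71 with IL-10 (6.75e-05) and 0.53 with TGF-β (0.00702). Of 9 cytokine, interferon and LPS receptors, 1 rose and 6 fell with LPS, 5 rose and 1 fell with IL-10, and 2 rose and 3 fell with TGF-β. Il10ra fell with each treatment, by 1.25, 0.97 and 0.52 on the log2 scale.

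Likeness of pattern was measured as the root mean square difference of log2 levels, each gene centred on its own mean, over the 12 cell libraries and 2970 candidate genes that varied at least as much as the median of the 10 (which leaves out B2m, Tap2, Tapbp, Psmb8 and Psmb9 as candidates), as a description of libraries that share their treatments and scaling. Nearest to H2-K1 among the candidates were Litaf (0.075), Fam234a (0.097) and Cd47 (0.113), where the SD of H2-K1 itself was 0.57. Litaf, for example, stood at 1266 in control, 1656 with LPS, 2005 with IL-10 and 830 with TGF-β, in CPM of the library total. Nearest to B2m were Cdkn2d (0.152), Riok3 (0.167) and Mpeg1 (0.174), to Tap1 Stat2 (0.104), Hmga1 (0.128) and Cd40 (0.13), and to Psmb9 Tmem176b (0.144), Psmb10 (0.17) and Cnn3 (0.175). Among the 10 genes themselves, the nearest pairs were Tap2 with Tapbp (0.109) and Psmb8 with Psmb9 (0.12), and the farthest was H2-T22 with B2m (0.746).

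The EV libraries varied far more between replicates than the cell libraries. The coefficient of variation of a gene within a group had a median of 49.4% in EVs (10 to 168%) and of 4.88% in cells (0.293 to 10.9%). No gene of the 10 was called in EVs with any treatment against control EVs by edgeR, where 13.9% of all 12216 genes were called higher and 0.237% lower with LPS, and 0% of 8992 and 9093 genes with IL-10 and TGF-β. At an unadjusted p under 0.05 there were 4 of the 10 with LPS (20.2% of all genes), 0 with IL-10 (1.97%) and 2 with TGF-β (3.96%). DESeq2 called 2 of the 10 with LPS, where it called 21% of all genes, and limma-voom called 1, Tap2 (5.5, adjusted p = 0.00892), where it called 24.9% of all genes. With this spread, a difference that did not pass is not shown to be absent. Of the whole table, 0 genes were called when any single LPS EV library was left out.

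In scaled CPM, LPS EVs had lower values of the classical heavy chains and B2m and higher values of Psme2 than control EVs, without overlap, though none passed edgeR's test. H2-K1 had 1013, 451 and 746 scaled CPM in control EVs (scaled over the 12 EV libraries) and 294, 360 and 335 in LPS EVs, a log2 difference of -1.16 (SE 0.42, edgeR adjusted p = 0.153). In CPM of library totals, the H2-K1 libraries of the groups overlapped. H2-D1 had 3515, 2417 and 2236 scaled CPM in control EVs and 1163, 1490 and 1409 in LPS EVs (-1.01, SE 0.40, edgeR adjusted p = 0.202). B2m had 2379, 1294 and 2145 scaled CPM in control EVs and 869, 775 and 947 in LPS EVs (-1.15, SE 0.42, edgeR adjusted p = 0.155, and 0.0177 in DESeq2). These 3 genes had lower values in every LPS EV library, but their edgeR tests did not pass. Psme2 had 209, 141 and 130 scaled CPM in control EVs and 622, 291 and 352 in LPS EVs, a log2 difference of 1.43 (SE 0.47, edgeR adjusted p = 0.112, 0.00886 in DESeq2 and 0.0379 with library totals). In all, 4 of the 10 genes (3 in library totals) did not overlap between LPS and control EVs, which is near the share of all genes (31.8%). The other 6 genes overlapped, with log2 differences between -0.43 for Tapbp and 1.37 for Tap2. The LPS EV libraries had higher neuronal, astrocyte and endothelial marker sums and fewer genes at 0 than the control EVs, with Mbp overlapping, and the part of these in the result was not tested. Markers near 0 in all other groups were listed only through the LPS EVs, which fixed their excess there.

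**Figure D4:**
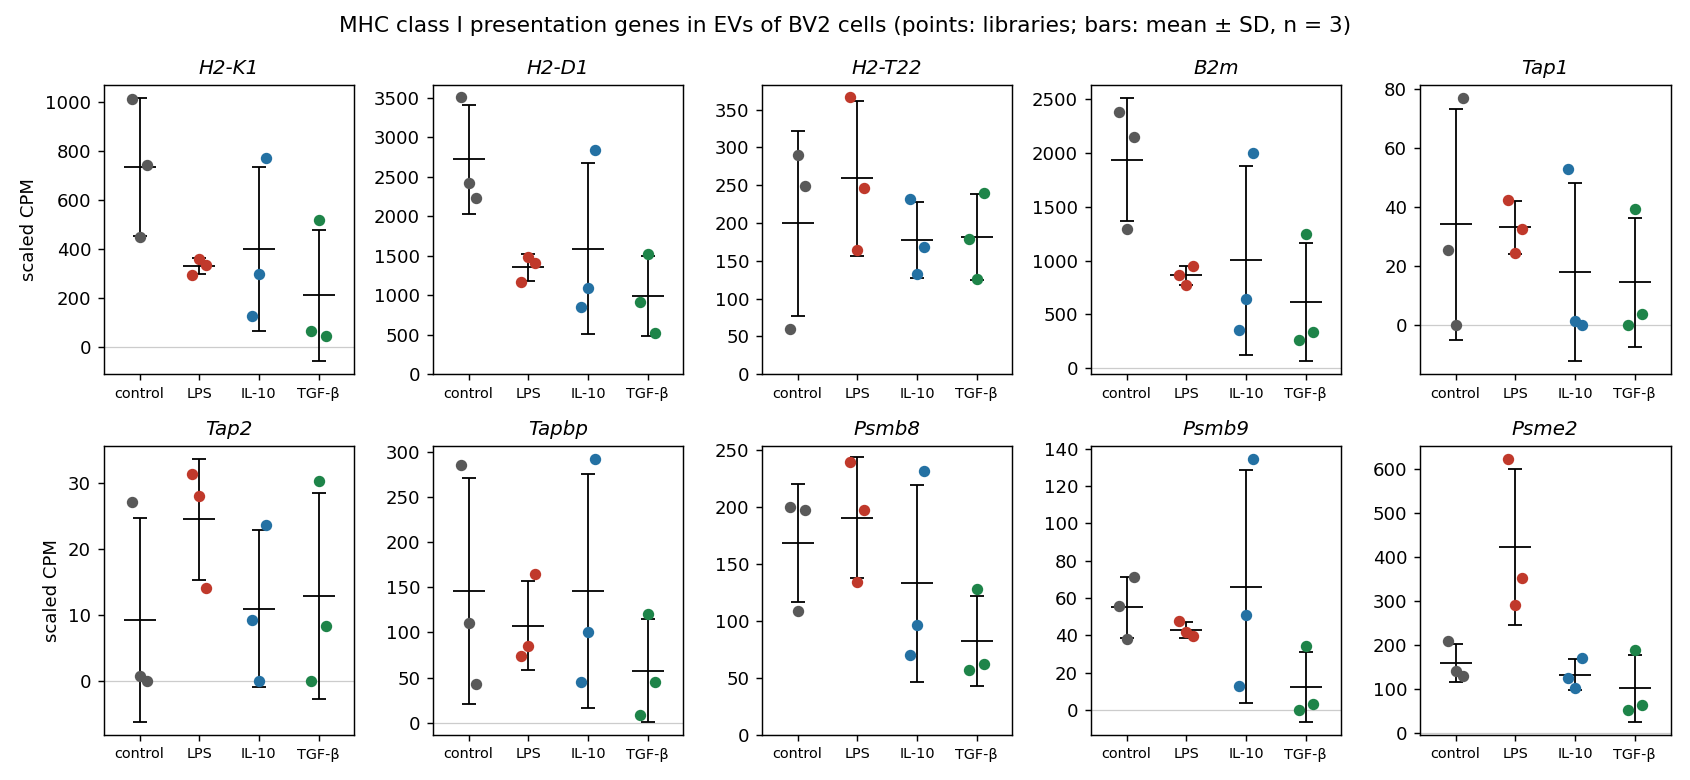
Level of each gene in the 12 EV libraries, in CPM scaled by TMM over those libraries (linear y axes). Points are libraries, ordered by their number within a group, and bars give the mean and SD of 3; single high libraries stand out in the control, IL-10 and TGF-β groups, and the LPS EVs lie below all control EVs for H2-K1, H2-D1 and B2m and above them for Psme2.

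In IL-10 EVs, 0 of the 10 genes were clear of the controls (9.94% of all genes), and library 3 stood high. H2-K1 was at 128, 300.2 and 774 scaled CPM and B2m at 358, 648 and 2002. In TGF-β EVs, 3 genes were clear (16.9% of all genes), all on the low side. H2-D1 was at 917, 1526 and 526 scaled CPM, B2m at 262, 1246 and 338, and Psmb9 at 0, 34.1 and 3.3. Their log2 differences to control EVs had an edgeR adjusted p of 0.999, as did every gene of the 10. The deepest library of a group held the highest value for 7 of the 10 genes in control EVs, 8 in IL-10 EVs and 9 in TGF-β EVs, but for 2 in LPS EVs, and the part of depth in these levels was not tested. H2-M2, at most 3.65 scaled CPM in control, IL-10 and TGF-β cells, stood at 73, 11.1 and 36.7 in control EVs. It was at 37.1 in IL-10 EV library 3 and 40.6 in TGF-β EV library 2, and had no count in the other libraries of these EV groups. Where this RNA came from was not tested.

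The least abundant genes dropped out of single EV libraries. Tap1 had 526, 0 and 550 counts in control EVs, 246, 5 and 0 in IL-10 EVs and 0, 351 and 21 in TGF-β EVs. Tap2 had 566, 4 and 0 counts in control EVs, 43, 0 and 220 in IL-10 EVs and 0, 271 and 46 in TGF-β EVs. In LPS EVs, Tap1 (196, 101 and 248 counts) and Tap2 (145, 116 and 108) were present in each library. A count of 0 allows up to 3 counts, which is 0.531 CPM in control EV library 2 and 0.658 CPM in TGF-β EV library 1, for counting error only. Within a group, libraries with over 200 counts of Tap1 thus stood beside libraries with none.

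The direct contrasts between treatments in EVs called 0 of the 10 genes for LPS against IL-10 (0% of all genes), for LPS against TGF-β (0.0236% in each direction) and for TGF-β against IL-10 (0%). In these fits, 1, 2 and 0 of the 10 had an unadjusted p under 0.05, as had 19.3%, 19.6% and 6.22% of all genes. A fit of the 6 libraries alone called Psme2 higher in LPS than in TGF-β EVs (2.05, edgeR adjusted p = 0.0483). That fit called 16.6% of all 12140 genes in either direction. The fit of 6 libraries for LPS against IL-10 EVs called 15% of all genes and did not call any of the 10. No ratio within EV libraries had a permutation p below 0.2 (exact two-sided test), Psmb9 over Psmb6 included.

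By the test of the interaction, the response to LPS differed between EVs and cells for H2-K1, H2-D1 and B2m. That test takes a common spread per gene over cells and EVs, although the EVs varied far more. Its SEs are below those of LPS against control EVs alone (0.42, 0.40 and 0.42), so its p-values can be too small. The interaction, the log2 change in EVs less that in cells, was -1.78 for H2-K1 (SE 0.37, edgeR adjusted p = 0.00742), -1.20 for H2-D1 (SE 0.30, 0.0203) and -1.53 for B2m (SE 0.33, 0.00854), 3 of 10 genes beside 2.04% of all 13263 genes called in this direction. H2-K1 and B2m rose in cells and had lower values in the EVs. The H2-D1 call was lost with RLE scaling (-0.94, adjusted p = 0.061), with library totals (-0.88, 0.15) and without any single one of the 6 cell libraries (0.0571 to 0.0674), while those of H2-K1 and B2m passed without each of the 12 libraries in turn. Psmb9 had an interaction of -1.32 (SE 0.41, edgeR adjusted p = 0.053), which passed without control EV library 1 (0.0353) or 2 (0.00797) or LPS EV library 1 (0.0386), and the other 6 genes an adjusted p between 0.171 and 0.931. Without control EV library 1, the deepest of its group, H2-T22 (-2.02, edgeR adjusted p = 0.00589) and Tap2 (5.57, 0.00336) passed as well, in a fit that called 27% of all genes. Psme2, with the largest log2 difference of the 10 between LPS and control EVs, had an interaction of -0.22 (SE 0.43, edgeR adjusted p = 0.902). For IL-10 and TGF-β 0 of the 10 passed the interaction (0.176% of all genes called lower in each, 0.109% and 0.134% higher), with 2 and 0 at an unadjusted p under 0.05 (12.1% and 13.1% of all genes). These counts rested on a single EV library in each group: without IL-10 EV library 3, H2-K1, H2-D1 and B2m passed with IL-10 (-2.73, -2.2 and -2.66), and without TGF-β EV library 2, H2-K1 and B2m passed with TGF-β (-3.24 and -2.55). These fits called 2.24% and 3.56% of all genes. The libraries left out are the deepest libraries of their groups.

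Against the cells of the same treatment, EV RNA held less of most class I genes with LPS. There, 7 of the 10 genes were lower in EVs (15.2% of all 13113 genes were) and 0 higher (25.3% were), from Psmb9 (-1.18, SE 0.23, edgeR adjusted p = 0.00459) to Tap1 (-2.59, SE 0.28, 0.000596). The other genes of the 7 were Tap2 (-1.61), B2m (-1.65), H2-D1 (-1.88), H2-K1 (-2.33) and Tapbp (-2.34). All 7 passed without each of the 6 libraries in turn. The fit of EVs against cells also takes a common spread per gene for both. H2-T22 (0.51, SE 0.32, edgeR adjusted p = 0.237, though 0.0341 with library totals and 0.0354 without LPS EV library 2), Psmb8 (-0.46, SE 0.27, 0.208, though 0.0457 without LPS EV library 1) and Psme2 (0.31, SE 0.32, 0.472) did not pass. In controls, 0 of the 10 passed (9.43% of all genes were called lower and 1.23% higher), with 2 at an unadjusted p under 0.05, H2-D1 (-0.69) and H2-T22 (2.11), as had 21.5% of all genes. Without control EV library 1 both passed (-1.01 and 2.46), as did Tap2 and Tapbp, and 35.2% of all genes were called in that fit. With IL-10 only H2-D1 was lower (-2.12, SE 0.50, edgeR adjusted p = 0.0393; 10.2% of all genes), and 0 were higher (7.49%). That call was lost without any library but IL-10 EV library 3 (edgeR adjusted p = 0.0564 to 0.15), and without that one 5 of the 10 genes passed, all lower, where 37.1% of all genes were called in either direction.

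With TGF-β, H2-T22 was higher in EVs than in cells by 2.53 (SE 0.33, edgeR adjusted p = 0.00837; 9.42% of all genes called higher) and H2-D1 lower by 1.57 (-1.57, SE 0.40, 0.0472; 8.99% called lower). The H2-T22 call was lost without any single TGF-β cell library (adjusted p = 0.0567 to 0.0631), and the H2-D1 call likewise (0.126 to 0.164) and without TGF-β EV library 1 (0.0838). Without TGF-β EV library 2, 6 of the 10 genes passed, where 34.4% of all genes were called. H2-T22 in EVs stood at 59.9, 289 and 249.4 scaled CPM in control, 367, 164 and 247 with LPS, 231, 133 and 168 with IL-10, and 179, 126 and 240 with TGF-β. These 4 groups overlapped, whereas in cells the gene went from 29.4 scaled CPM with TGF-β to 186 with LPS. Its near copy H2-T10 was at 28.8 CPM of library totals in LPS EVs and at most 0.995 CPM on average in the other EV groups. It was 1 of 2 other heavy chains called in LPS against control EVs (edgeR adjusted p = 0.0326), with H2-Q4 (10.7 ± 4.86 against 0.458 ± 0.218 CPM, SD, n = 3, 0.0467), while none of the other 7 lists had a called gene in EVs with any treatment against control.

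**Figure D5:**
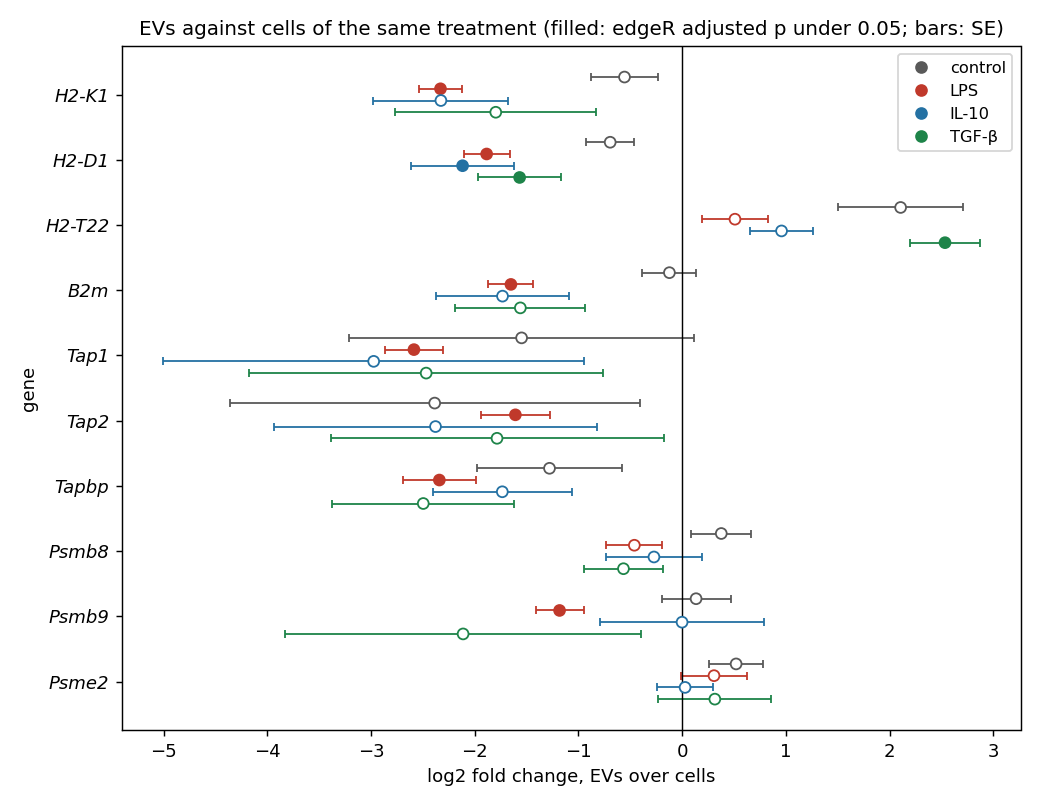
Log2 fold change of EVs over cells of the same treatment (x axis) with its SE, for control (grey), LPS (red), IL-10 (blue) and TGF-β (green). Filled points passed edgeR's test; 7 of the 10 LPS points are filled and below 0, and H2-T22 lies above 0 in all 4 groups, past the test with TGF-β.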

How the data were processed

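Per the labels' protocols, total RNA of BV2 cells and of their EVs was amplified (SMART-Seq v4 kit), tagmented (Nextera XT kit) and read from both ends, 150 bases each. The authors deposited whole-number read counts per gene symbol, in 6 tables of 1 treatment and its controls in 1 compartment. The control columns are the same in the 3 tables of a compartment, so they were joined into 24 libraries, with 0 columns left unmapped. The submitters' processing notes name DESeq2, whereas the genome build, aligner and counting settings (strand, shared reads) were not given in the sources used here. Across the 24 libraries the lowest total of a listed gene was 240, so genes below it are not analysed here.

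From these counts edgeR 4.0.16 was run on all genes (scaled by TMM and filtered by filterByExpr, with a robust quasi-likelihood fit; p adjusted over every gene tested by Benjamini-Hochberg, called under 0.05): on 6 libraries for a treatment against control or EVs against cells, on the 12 of a compartment for contrasts between treatments, and on the 12 concerned for the interaction. The SE is the log2 fold change divided by the root of the F statistic. Fits that join cells and EVs take a common spread per gene for both, though EVs varied more, so their p-values can be too small. All 10 genes passed the filter in every fit. Ratios were tested by exact two-sided permutation of 20 assignments (0.5 added to each count), adjusted over 12 per compartment. Exon lengths (GENCODE M21, the exons of all transcripts of a gene joined) matched 13250 of 13290 symbols. The fits were tested on simulated data in which a small share of the genes was changed. There, most of the changes put in were called with the spread of the cells and none with that of the EVs. That setting differs from the LPS EVs, where the same fit called 1732 of 12216 genes. R 4.3.3 and Python 3.11.15 were used. The alternatives tried were DESeq2 1.42.0, RLE scaling, limma-voom 3.58.1 with quality weights, other count filters (at least 1 count, or a mean of at least 50), all 12 libraries of a compartment or the 6 concerned, each library left out, and scaling by library totals. Chosen after seeing the data were the library totals for comparisons with control and the left-out libraries for the other comparisons. The members and lists were chosen with earlier results of these data known. Every gene of the 10 is described in each comparison, at most 4 of each other list are named per comparison, those with the lowest adjusted p, and Psmb5, Psmb6, Psmb7, Nlrc5 and Irf1 are always named; a further regulator of that rule is not reported here. H2-T10 and Psme2b in cells, H2-T23 with LPS and H2-M2 in EVs were named beside the rule, after their values were seen.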

Additional observations from a re-analysis of the deposited data

Results flagged for a closer look

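For 3 of the 10 genes the response to LPS differed between EVs and cells by the test of the interaction, beside 2.04% of all genes called in this direction. That test takes a common spread per gene over cells and EVs, so its p-values can be too small. In EVs alone, the 3 changes did not pass edgeR's test (adjusted p = 0.153 to 0.202). The log2 change in EVs less that in cells was -1.78 for H2-K1 (edgeR adjusted p = 0.00742), -1.2 for H2-D1 (0.0203) and -1.53 for B2m (0.00854). After TMM scaling, H2-K1 was 1.38-fold higher in LPS cells, in 3 of 3 libraries, and had lower values in 3 of 3 LPS EV libraries. B2m was 1.16-fold higher in cells with lower values in 3 of 3 LPS EV libraries. In CPM of library totals, the H2-K1 values of LPS EV library 2 (491.5) and control EV library 2 (423.2) overlapped the other way. Of all genes, 62.4% did not overlap between LPS and control in cells and 31.8% in EVs. H2-D1 overlapped between control and LPS cells, and its interaction did not pass under 2 other scalings or without any single cell library. The LPS and control EVs also differed in the sums of neuronal markers (20.1 to 146 against 0 to 9.13 CPM) and astrocyte markers (64.3 to 320 against 0 to 42.2 CPM) and overlapped in the oligodendrocyte marker Mbp (0.686 to 4.31 against 0 to 60.5 CPM). Markers near 0 in all other groups were listed only through the LPS EVs, which fixed their excess there. The part of the markers in these differences was not tested.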

How the results depend on the processing

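In cells, the counts of genes called against control stayed within 1.5 times of the reported ones under every alternative run, and the direction of single genes turned for H2-D1 with LPS alone, which ranged from -0.03 to 0.09 with each library left out. In EVs, the count of the 10 genes called higher with LPS was 1 in DESeq2, limma-voom and with library totals (0 in edgeR), and the count lower was 1 in DESeq2. For EVs of LPS against TGF-β the fit of 6 libraries called 1, where it called 16.6% of all genes. For EVs against cells, library totals left 0 with IL-10, and the filter on a mean of 50 counts left 1 with TGF-β, where H2-D1 was lost. Signs turned for Tap1 with LPS in EVs (0.04 with RLE scaling, 0.03 in DESeq2, 3.04 in limma-voom, 0.07 with the mean of 50, 0.13 with library totals). In limma-voom they turned for Tapbp with LPS (0.5), Tap1 (0.13) and Psmb9 (-0.67) with IL-10 and Tap1 with TGF-β (0.84), all in EVs. Tapbp in IL-10 EVs was 0 in the fit of 12 libraries, the interaction of Psme2 with LPS 0.02 with library totals, and Psmb9 in EVs against cells with IL-10 0.02 with RLE scaling, 0.12 with library totals and 0.07 with the mean of 50. With each library left out, signs also turned in EVs, with LPS for Psmb8 (-0.05 to 0.37), Tap1 (-0.59 to 1.39) and Tapbp (-0.89 to 0.53), with IL-10 for H2-T22 (-0.64 to 0.13), Psmb9 (-0.85 to 0.73), Tap1 (-5.93 to 0.39), Tap2 (-1.13 to 4.83) and Tapbp (-1.07 to 0.95), and with TGF-β for H2-T22 (-0.57 to 0.24), Tap1 (-4.15 to 0.13) and Tap2 (-1.18 to 5.04). The count of the 10 genes past the interaction ranged from 2 to 6 with LPS, 0 to 3 with IL-10 and 0 to 2 with TGF-β, and that of EVs against cells from 0 to 4 in control, 0 to 5 with IL-10 and 0 to 6 with TGF-β. Tapbp in LPS against IL-10 cells ranged from -0.02 to 0.11, and Psme2 from -0.62 to 0.24 in the LPS interaction and -0.1 to 0.58 in LPS EVs against cells. The cause was not tested. The median of all genes in LPS against control EVs was 0.33, and 0.54 with library totals, and the number of all genes called was 1732 in edgeR, 2684 in DESeq2, 3038 in limma-voom, and 0 with the mean of 50, in the fit of 12 libraries or without any LPS library. No paired analysis was possible because the column numbers are not tied to the samples' labels. A count of 0 in an EV library of 3019338 to 17978753 counts allows 0.167 to 0.994 CPM.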
